A study of Mus musculus with 6 samples.

Results

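The transcripts described here are those of Acod1 and of 8 genes for enzymes of the tricarboxylic acid (TCA) cycle and its cytosolic partner: Cs, Idh1, Idh2, Idh3a, Ogdh, Sucla2, Fh1 and Mdh2. They were chosen by gene symbol alone, through the GENCODE M21 annotation of GRCm38, and make up 9 of the 55487 genes listed. All 9 passed the filter on low counts, which kept 14140 genes. RNA came from macrophages of Lewis lung carcinoma, a mouse lung tumour line. Its cells were injected subcutaneously into the flank of C57BL/6 mice, and the tumours were taken after 15 to 17 days. The sort kept CD11b+ F4/80+ cells without Ly6C or Ly-6G and parted them by surface MHC class II, giving 6 libraries in 3 batches, each batch with a library labelled MHC-II high and another labelled low. No treatment, transgene or healthy control stood beside them, and the labels used here do not give the age of the mice or whether tumours were pooled. Nor do they say whether the libraries stem from different animals: the spread behind every p-value is one between libraries and may be technical.

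The TCA cycle oxidises acetyl groups in mitochondria. Citrate synthase makes citrate, which becomes isocitrate by way of cis-aconitate, and a chain of dehydrogenases carries the carbon through 2-oxoglutarate, succinate, fumarate and malate back to oxaloacetate. ACOD1, also called IRG1, sits in mitochondria of activated myeloid cells and removes a carboxyl group from cis-aconitate to give itaconate, which inhibits succinate dehydrogenase and is known as a brake on inflammatory macrophages.

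Libraries held 10202879 to 25473051 reads in genes. Labelled low replicate 3 stood apart from the rest. An rRNA copy took 47.3% of its reads in genes, against 3.85% to 13.5% in the other 5 libraries, and its log2 CPM rose by 0.70 for every 10 percentage points of GC content of a gene, against slopes of -0.58 to 0.08 elsewhere. MHC class II transcripts went against the labels: H2-Aa, a chain of the sorted protein, was at 4.4 to 6.69 CPM (the usual depth-scaled read count, here on TMM-scaled library sizes) in the libraries labelled high and at 1166 to 1506 CPM in those labelled low. Directions below are therefore those of the libraries as labelled, and a positive change means more RNA where the label reads high. Macrophage genes were abundant under both labels, with Csf1r, the receptor for macrophage colony-stimulating factor, at 692 to 855 CPM under the high label and 738 to 1421 CPM under the low one.

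The upstream sequences of 2 members are shown because they mark opposite ends of the results, Acod1 being the member that parted the labels most and Cs the one with the narrowest interval around no difference. Both come from RefSeq (GRCm38.p6), plus strand, 5′ to 3′, and stop before the first annotated transcript base. Capitals mark the pentamer CCAAT, the interferon regulatory factor core AANNGAAA and, in Cs only, the SP-type GC box GGGCGG, each searched on both strands.
Acod1, chr14:103046762-103046976: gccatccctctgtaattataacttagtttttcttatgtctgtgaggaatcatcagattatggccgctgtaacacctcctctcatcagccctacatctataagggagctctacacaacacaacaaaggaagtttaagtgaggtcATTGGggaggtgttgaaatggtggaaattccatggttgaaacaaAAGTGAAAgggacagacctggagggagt
Cs, chr10:128337477-128337726: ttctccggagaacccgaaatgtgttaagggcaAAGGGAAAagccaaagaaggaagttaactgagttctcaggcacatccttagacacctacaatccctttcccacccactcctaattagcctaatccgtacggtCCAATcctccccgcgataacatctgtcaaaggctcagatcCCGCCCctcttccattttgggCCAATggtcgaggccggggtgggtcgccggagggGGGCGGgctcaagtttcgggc
The table matched 8 of the 9 members, with 14 start sites in all. In the 250 bases before the start, TATAAA was found for Acod1 alone, past the end of the stretch printed, and in 12.4% of 32851 such windows of all genes. The GC box GGGCGG was found for 7 members, all those matched except Acod1. It was in 9 of the members' 14 windows and in 32.7% of all windows. AANNGAAA was found for Acod1, Cs and Ogdh, in 4 of 14 windows (21.3% of all windows), and CCAAT for 6 members, in 9 of 14 (33.8%). The 10-base motif of nuclear respiratory factor 1 was found for Sucla2, in 1 of 14 (3.74%). TGANTCA, the AP-1 motif, and CCGGAAG, an ETS motif, were found for 0 members and in 6.75% and 6.91% of all windows. These matches describe letters only.

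Acod1 was the member with the widest separation between the labels. Its gene lies on chromosome 14 from 103046977 to 103056573, plus strand, with 5 exons in its longest transcript. Acod1 stood at 18.5, 36.1 and 27.1 CPM in labelled high replicates 1, 2 and 3 and at 10.7, 12.3 and 9.28 CPM in labelled low replicates 1, 2 and 3. Every library labelled high lay above every library labelled low, and the 3 labelled low libraries were close together while the labelled high ones spread over about as much as the means were apart. These levels rested on 333, 810 and 757 reads under the high label and on 200, 301 and 52 under the low label. The means were 27.2 ± 8.78 and 10.7 ± 1.52 CPM (SD, n = 3 each), and edgeR's quasi-likelihood test gave a log2 fold change of 1.33 (standard error 0.28, 95% interval 0.70 to 1.97) and an adjusted p of 0.119. Acod1 thus did not pass the threshold of 0.05 over all genes. Its unadjusted p was 0.00122, the rank of 145 by p among 14140 genes, and its fold change of 2.52 ranked 78 from the top.

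Within batches the log2 ratio of Acod1 was 0.79, 1.54 and 1.53 for batches 1, 2 and 3, so the direction was the same in 3 of 3, as for 40.1% of all genes tested. DESeq2 called Acod1 (adjusted p 0.00233), as did edgeR with each library's trend over GC content taken out (log2 fold change 1.27, adjusted p 0.0222) and with that offset and the batch as a block (1.23, adjusted p 0.0103). Those 3 fits called 2.81%, 2.57% and 4.34% of all genes. The batch block alone (0.29% of all genes called) gave an adjusted p of 0.183, and the edgeR fit without labelled low replicate 3 (0.469% called) gave 1.24 and an adjusted p of 0.162. Acod1 passed as well without a filter on low counts, without labelled low replicate 2 and with sample quality weights in limma-voom, fits that called 2.02%, 7.16% and 43.1% of all genes.

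**Figure D1:**
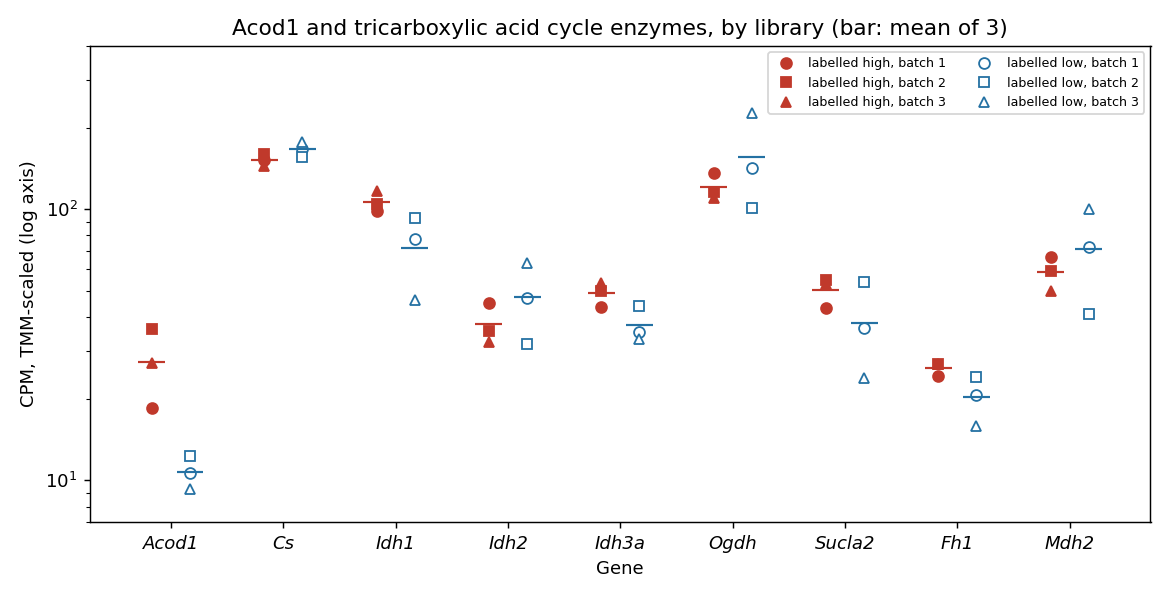
CPM of the 9 genes in each of the 6 libraries on a log axis, with filled red symbols for the libraries labelled MHC-II high, open blue symbols for those labelled MHC-II low, the shape giving the batch and the bar the mean of 3. Acod1 shows a gap between 12.3 CPM in the highest library labelled low and 18.5 CPM in the lowest labelled high, while the triangle of labelled low replicate 3 is at an extreme for all 9 genes.

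Of the 9 genes 0 were called by edgeR in either direction, where 0.446% of all genes tested were (0.0919% higher and 0.354% lower). At an unadjusted p under 0.05 the count was 1, Acod1, against 12.1% of all genes (4.06% higher and 7.99% lower), and DESeq2 called the same 1. Groups did not overlap for 3 of the 9, Acod1, Idh1 and Fh1, each higher under the high label, as for 10.5% of all genes tested. The 8 enzymes without Acod1 had a median log2 fold change of 0.11 and a range of -0.37 to 0.55, and the median over all genes tested was -0.02. Their summed level was 586 to 610 CPM in the libraries labelled high and 544 to 685 CPM in those labelled low, which overlapped.

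Cs, citrate synthase, feeds the cycle by joining acetyl-CoA to oxaloacetate. It stood at 152, 160 and 144 CPM in labelled high replicates 1 to 3 and at 167, 156 and 177 CPM in labelled low replicates 1 to 3. The groups overlapped and every library was within a narrow band. The log2 fold change was -0.13, with a 95% interval from -0.49 to 0.23 (adjusted p 0.677 by edgeR), and -0.09 without labelled low replicate 3. Cs lies on chromosome 10 from 128337734 to 128362479.

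Isocitrate dehydrogenases turn isocitrate into 2-oxoglutarate in separate compartments. IDH1 does so in the cytosol and peroxisomes and IDH2 in mitochondria, both with NADP, while IDH3A is the catalytic subunit of the NAD-dependent enzyme of the cycle proper. Idh1 stood at 98.3, 104 and 116 CPM in labelled high replicates 1 to 3 and at 77.6, 92.5 and 46.2 CPM in labelled low replicates 1 to 3. The groups did not overlap, but labelled low replicate 2 lay just under the lowest labelled high library, and labelled low replicate 3 lay far below the other 5. The log2 fold change of Idh1 was 0.55 (95% interval -0.03 to 1.14, adjusted p 0.424 by edgeR), and 0.32 without labelled low replicate 3.

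Idh2 went the other way in the same library. It stood at 45.2, 35.6 and 32.2 CPM in labelled high replicates 1 to 3 and at 47.0, 31.7 and 63.4 CPM in labelled low replicates 1 to 3, with labelled low replicate 2 the lowest and labelled low replicate 3 the highest of all 6. Its log2 fold change was -0.32 (95% interval -0.95 to 0.30, adjusted p 0.571), and -0.06 without labelled low replicate 3. Idh3a stood at 43.5, 49.7 and 53.6 CPM and at 35.3, 44.1 and 33.2 CPM in the same order. Labelled low replicate 2 overlapped the libraries labelled high, and the log2 fold change was 0.38 (95% interval -0.05 to 0.81, adjusted p 0.442 by edgeR).

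Ogdh encodes the catalytic subunit of 2-oxoglutarate dehydrogenase, and Sucla2 the beta subunit of the succinyl-CoA synthetase that yields ATP. Ogdh stood at 136, 116 and 110.2 CPM in labelled high replicates 1 to 3 and at 141, 101 and 226 CPM in labelled low replicates 1 to 3. Sucla2 stood at 43.2, 54.8 and 53.1 CPM and at 36.5, 54.0 and 23.7 CPM in that order. For both, labelled low replicate 2 lay among or near the libraries labelled high, and labelled low replicate 3 lay far off, high for Ogdh and low for Sucla2. Their log2 fold changes were -0.37 (95% interval -1.03 to 0.29) and 0.39 (-0.27 to 1.06), with adjusted p values of 0.545 and 0.528 by edgeR. Without labelled low replicate 3 they were -0.0061 and 0.15.

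Fh1, fumarase, hydrates fumarate to malate, and Mdh2, mitochondrial malate dehydrogenase, closes the cycle. Fh1 stood at 24.3, 26.9 and 26.9 CPM in labelled high replicates 1 to 3 and at 20.7, 24.1 and 15.9 CPM in labelled low replicates 1 to 3, so that the groups were apart by less than 1 CPM at their nearest. Mdh2 stood at 66.8, 59.3 and 49.9 CPM and at 72.8, 41.1 and 100.3 CPM in that order, with both extremes among the libraries labelled low. The log2 fold changes were 0.36 (95% interval -0.12 to 0.83, adjusted p 0.478) for Fh1 and -0.28 (-0.98 to 0.43, adjusted p 0.65) for Mdh2 by edgeR, and 0.22 and 0.041 without labelled low replicate 3. The intervals of Idh1, Ogdh and Sucla2 include a change of 1 on the log2 scale, so a 2-fold difference lay within their error.

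Counts of Fh1 carry an uncertainty of position, because the strand setting of the counting is not given in the sources used here and Fh1 overlaps a gene on the other strand. Kmo, kynurenine 3-monooxygenase, overlaps Fh1 on chromosome 1 and had 127 reads in all 6 libraries together, against 1794 and 1066 reads of Fh1 under the high and the low label. Kmo was at 0.278, 0.0446 and 0.572 CPM in the libraries labelled high, against 2.29, 2.29 and 1.07 CPM in those labelled low, opposite in direction to Fh1.

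**Figure D2:**
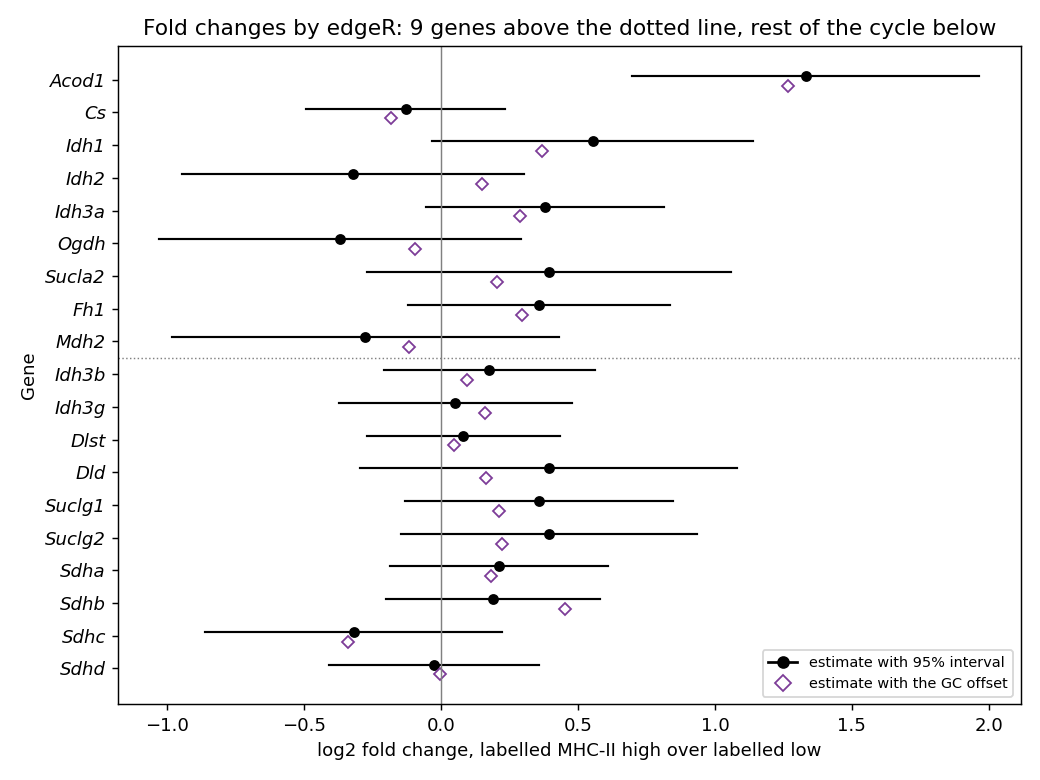
Log2 fold change of labelled high over labelled low for the 9 genes and, below the dotted line, 10 further genes of the cycle, with dots and lines for the edgeR estimate and its 95% interval and open diamonds for the estimate with the GC offset. The interval of Acod1 runs from 0.70 to 1.97 and the other 18 intervals include 0.

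The 8 enzymes differed less between the labels in batches 1 and 2 than in batch 3. In batch 1 their log2 ratios ran from -0.13 to 0.34, with 4 of 8 above 0, and the median absolute ratio was 0.18 against 0.26 over all genes tested. In batch 2, where neither library had a raised rRNA share, the ratios ran from 0.02 to 0.53, all 8 were above 0, and the median absolute ratio was 0.17 against 0.21. Batch 3 ran from -1.04 to 1.33, with 4 of 8 above 0 and a median absolute ratio of 0.99 against 0.81.

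Batch 3 ratios were above 0 for the members with the lower GC content of the longest coding transcript and below 0 for those with the higher. Sucla2 and Idh1, at 43.2% and 43.8% GC, had ratios of 1.16 and 1.33, and Idh3a and Fh1, at 46.9% and 47.7%, had 0.69 and 0.76. Cs, at 50.4%, had -0.29, and Ogdh, Idh2 and Mdh2, at 52.5%, 55.4% and 55.4%, had -1.04, -0.97 and -1.0. The part of GC content in these ratios was not tested beyond the offset, which takes each gene's longest annotated transcript, for Cs and Mdh2 one of 1 exon with 48.2% and 50.9% GC. Acod1, at 47.6% GC, had a ratio of 1.53 in batch 3 and 1.54 in batch 2. Among all genes tested these ratios were at percentile 95.4 in batch 3 and 99.4 in batch 2. The batch 3 ratio rested on 52 reads of Acod1 in labelled low replicate 3. Labelled low replicate 3 was the lowest or the highest of the 6 libraries for 9 of 9 members, as for 74% of all genes tested. With the GC offset the log2 fold changes of the 8 enzymes ran between those of Cs, -0.18, and of Idh1, 0.37, and Idh2 turned from -0.32 to 0.15. None of the 8 passed with the offset by edgeR.

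**Figure D3:**
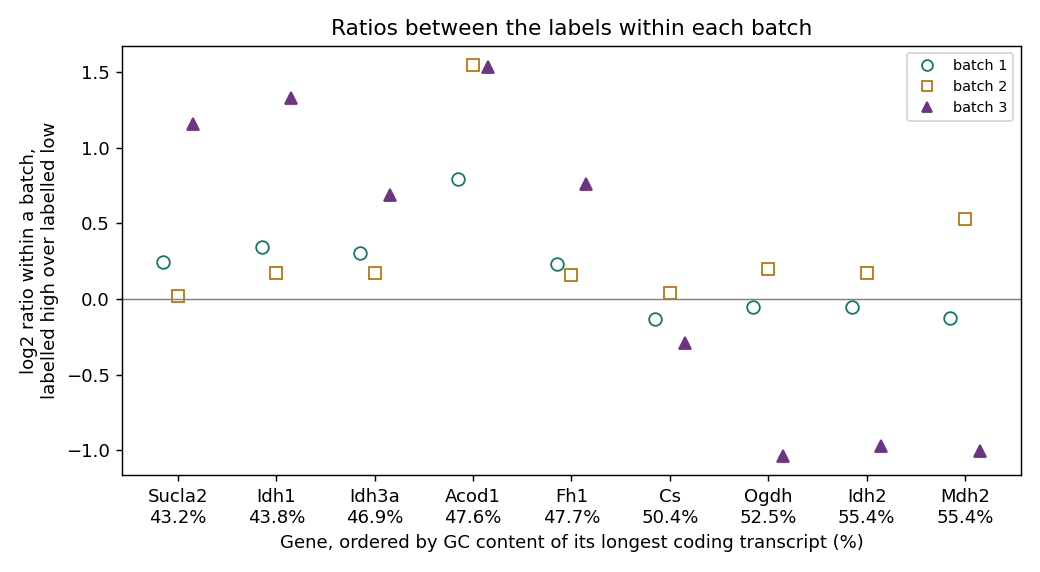
Log2 ratio of labelled high over labelled low within batch 1 (circles), batch 2 (squares) and batch 3 (filled triangles) for the 9 genes, ordered from left to right by the GC content of the longest coding transcript. For the 8 enzymes batch 3 runs between 1.33 at Idh1 and -1.04 at Ogdh, and batches 1 and 2 stay between -0.13 and 0.53. Acod1 lies at 0.79 to 1.54 in all 3 batches.

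Levels per kilobase of exon allow the genes to be ranked against each other. In the libraries labelled high, Idh1 (38.3 ± 3.29 CPM per kb), Cs (26.3 ± 1.36) and Ogdh (22.1 ± 2.51) led, followed by Mdh2 (16.5 ± 2.37), Idh2 (14.6 ± 2.60) and Sucla2 (12.6 ± 1.57). Acod1 (10.4 ± 3.35), Idh3a (9.65 ± 1.00) and Fh1 (7.68 ± 0.44) came last (SD, n = 3). Mdh2, Idh2 and Sucla2 did not differ from their next neighbour beyond this spread, nor did Acod1 from Sucla2, Idh3a and Fh1. In the libraries labelled low, Acod1 was the lowest of the 9 at 4.10 ± 0.58 CPM per kb, below Fh1 at 5.96 ± 1.21, and Cs led at 28.8 ± 1.82, level with Ogdh at 28.6 ± 11.7 and Idh1 at 26.0 ± 8.52. Between them came Mdh2 (20.0 ± 8.31), Idh2 (18.3 ± 6.12), Sucla2 (9.55 ± 3.82) and Idh3a (7.40 ± 1.14), of which neither Mdh2 and Idh2 nor Sucla2 and Idh3a differed beyond their spread. The order depended on the length used. With the longest coding transcript, an alternative chosen after seeing the data, Cs (51.9 ± 2.68 CPM per kb) led Idh1 (46.1 ± 3.96), Mdh2 (40.3 ± 5.79) and Ogdh (29.2 ± 3.32) under the high label. Acod1 at 10.4 ± 3.35 then lay below Idh3a at 19.0 ± 1.96 and beside Fh1 at 9.88 ± 0.57, and it was the lowest of the 9 under the low label.

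Ratios of paired enzymes within a library do not depend on how libraries are scaled against each other. A library's GC trend remains in them where the paired genes differ in GC content. That of the longest coding transcript was 47.6% and 50.4% for Acod1 and Cs, and 43.8% and 55.4% for Idh1 and Idh2. It was 43.2% and 44.4% for Sucla2 and Suclg2, and 46.9% and 52.1% for Idh3a and Idh3b. The part of GC content in the ratios was not tested. The ratio of Acod1 to Cs per kb set the itaconate enzyme against the entry to the cycle. It was 0.269, 0.498 and 0.414 in labelled high replicates 1 to 3 and 0.141, 0.174 and 0.116 in labelled low replicates 1 to 3. All 3 libraries labelled high were above all 3 labelled low, with means of 0.393 ± 0.116 and 0.144 ± 0.029. Over the 20 ways of parting 6 libraries, the two-sided exact permutation p was 0.1, the smallest that these allow, and 0.2 after adjustment over 4 ratios chosen with the counts known. With labels exchanged only within batches, 8 arrangements are left, and the exact p was 0.25, the smallest that those allow.

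Idh1 to Idh2, the cytosolic against the mitochondrial NADP enzyme, was 2.71 ± 0.67 and 1.65 ± 1.03, and overlapped (exact permutation p 0.2, adjusted 0.267, n = 3 each). Both libraries of batch 2 were at 2.73 after rounding, and labelled low replicate 3 was at 0.681. Sucla2 to Suclg2, the ATP-yielding against the GTP-yielding beta subunit of succinyl-CoA synthetase, was 3.19 ± 0.19 and 3.12 ± 0.56 (exact permutation p 0.9, n = 3 each). Idh3a to Idh3b, 2 subunits of the same enzyme, was 0.425 ± 0.030 and 0.368 ± 0.012, without overlap (exact permutation p 0.1, adjusted 0.2, n = 3 each).

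**Figure D4:**
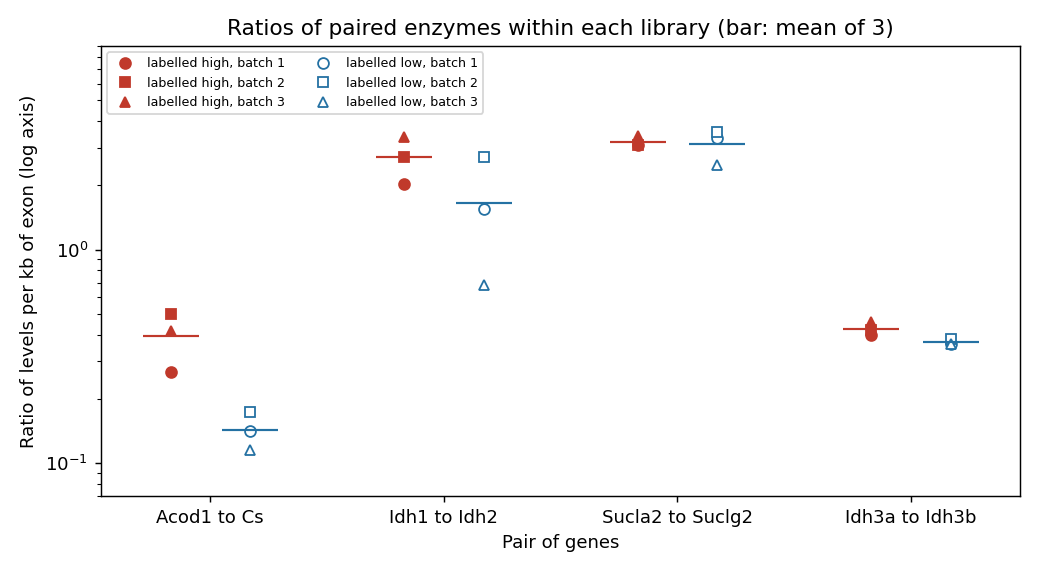
Ratio of levels per kb of exon for 4 pairs of genes in each library, on a log axis, with colours and shapes as in the plot of CPM by library and bars for the mean of 3. Acod1 to Cs lies between 0.269 and 0.498 in the libraries labelled high and between 0.116 and 0.174 in those labelled low, while Sucla2 to Suclg2 lies between 2.49 and 3.56 over all 6.

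For each of a further 10 genes of the cycle the interval of the log2 fold change included 0, with 8 estimates above 0 and 2 below. Of the 10 0 were called by edgeR or DESeq2, 0 had an unadjusted p under 0.05, 0 had groups that did not overlap, and the median log2 fold change was 0.18 with a range of -0.32 to 0.39. The other subunits of NAD-dependent isocitrate dehydrogenase, Idh3b and Idh3g, had log2 fold changes of 0.18 and 0.05. Dlst and Dld, which complete the 2-oxoglutarate dehydrogenase complex around Ogdh, had 0.08 and 0.39, with 0.16 for Dld without labelled low replicate 3.

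Succinyl-CoA synthetase and succinate dehydrogenase follow in the cycle. Suclg1, the shared alpha subunit, and Suclg2 had log2 fold changes of 0.36 and 0.39. The subunits of succinate dehydrogenase, the enzyme that itaconate inhibits, had 0.21 for Sdha, 0.19 for Sdhb, -0.32 for Sdhc and -0.03 for Sdhd, of which Sdha and Sdhc moved to 0.11 and -0.08 without labelled low replicate 3. Sdha, the flavoprotein subunit, stood at 165 ± 12.2 and 142 ± 18.0 CPM (SD, n = 3 each), and its 95% interval ran from -0.19 to 0.61.

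Genes around the cycle were called in neither direction. Of 15 tested genes of pyruvate entry 0 passed by edgeR (median log2 fold change 0.08, 0 of 15 at an unadjusted p under 0.05). Pdhx, the component that binds the E3 subunit of pyruvate dehydrogenase, stood at 15.3 ± 0.81 and 10.9 ± 1.96 CPM (log2 fold change 0.48, adjusted p 0.42), and Pdha1, its catalytic alpha subunit, at 96.7 ± 5.50 and 76.8 ± 14.4 CPM. Of 17 genes of citrate, malate and glutamate exchange 0 passed by edgeR. At an unadjusted p under 0.05 by edgeR, 1 gene was lower, where 7.99% of all genes were. That gene was Slc25a11, the mitochondrial 2-oxoglutarate carrier, at 33.3 ± 1.22 and 48.9 ± 12.3 CPM (log2 fold change -0.55, adjusted p 0.398, and -0.16 with the GC offset). Slc25a1, the citrate carrier, stood at 9.0 ± 2.31 and 16.5 ± 9.78 CPM, and its log2 fold change went from -0.85 to -0.16 with the offset. Of 11 tested genes of mitochondrial biogenesis 0 passed, with a median of 0.14 and 0 at an unadjusted p under 0.05, and DESeq2 also called 0 in each of these 3 lists.

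Genes known to answer to itaconate or to dispose of it came next. Of 13 tested 0 passed by edgeR or DESeq2, and the median log2 fold change was 0.06. At an unadjusted p under 0.05 by edgeR, 1 was higher and 1 lower, where 4.06% and 7.99% of all genes were. Gclm, the modifier subunit of glutamate-cysteine ligase and a target of NRF2, had 26.7, 23.2 and 23.0 CPM under the high label against 18.9, 13.5 and 16.2 CPM under the low label, without overlap (log2 fold change 0.58, adjusted p 0.366). Slc7a11, the cystine importer and also an NRF2 target, was the other, with 47.9, 44.9 and 61.0 CPM and 89.3, 97.6 and 61.0 CPM, groups that touched (log2 fold change -0.69, adjusted p 0.326). The signs of these 2 genes were opposite. Of the 13 genes 7 were above 0 and 6 below. Groups did not overlap for 5 that were higher and 2 that were lower, where 10.5% and 9.48% of all genes tested did so. Nqo1 was among the 5, at 1.07 ± 0.34 and 0.51 ± 0.15 CPM from 71 and 28 reads (log2 fold change 0.95, adjusted p 0.429 by edgeR). With the GC offset Slc7a11 was lower by edgeR (-0.96, adjusted p 0.00654), while Gclm went to 0.32 (adjusted p 0.579).

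Among 16 genes for signals that induce Acod1 in macrophages or are induced with it, 1 was called by edgeR. It was called lower, as were 0.354% of all genes. Il1b, interleukin 1 beta, fell from 158 ± 30.1 CPM under the low label to 51.4 ± 11.0 CPM under the high label (log2 fold change -1.62, standard error 0.23, adjusted p 0.0311, and 0.0742 with the batch block), in the direction opposite to Acod1. Tlr2, a receptor for bacterial lipopeptides, stood at 199, 183 and 189.8 CPM in the libraries labelled high against 122, 116 and 94.2 CPM in those labelled low, apart like Acod1 and also short of the threshold (log2 fold change 0.78, adjusted p 0.14). Il6 stood at 0.40 ± 0.14 and 2.00 ± 1.42 CPM, and Myd88, the adaptor of Toll-like receptors, at 19.0 ± 0.93 and 34.1 ± 10.5 CPM (adjusted p values of 0.176 and 0.275 by edgeR). The median log2 fold change of the 16 genes was -0.30. With the GC offset 1 gene of the list was higher by edgeR, Tlr2 (adjusted p 0.00956), and 3 were lower, Il1b (0.0011), Il6 (0.0484) and Ptgs2 (0.017), the gene of cyclooxygenase 2. The fit with the offset called 1.05% of all genes higher and 1.52% lower. DESeq2 called 1 higher, Tlr2 (adjusted p 0.00499), and 2 lower, Il1b and Il6 (0.0125), beside 0.856% of all genes higher and 1.96% lower. Of 14 tested genes of enzymes and receptors that sense or use 2-oxoglutarate, succinate or fumarate 0 passed by edgeR or DESeq2. At an unadjusted p under 0.05 by edgeR, 2 were lower, D2hgdh and Kdm6b, where 7.99% of all genes were. Kdm6b, a histone demethylase gene, overlapped between the labels, was highest in labelled low replicate 3 at 158 CPM, and went from -1.46 to -0.46 without that library.

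The cell types that the gate could hold were read beside Acod1. Of 10 macrophage markers 0 were called by edgeR, 4 were above 0 and 6 below, and the median log2 fold change was -0.30. Those below 0 were C1qa, C1qb, C1qc, Csf1r, Cd68 and Fcgr1, all with overlapping groups. Lyz2, lysozyme, and Adgre1, which encodes F4/80, were apart between the labels in the same direction, at 6456 ± 562 and 3384 ± 264 CPM and at 344 ± 25.8 and 184 ± 33.8 CPM, with adjusted p values of 0.122 and 0.132 by edgeR. Like Acod1, both passed by DESeq2 (adjusted p 7.3e-05 and 0.0035) and with the GC offset (0.0121 and 0.0161 by edgeR). Dendritic cell markers went the other way. All 8 tested of 10 were lower without overlap (9.48% of all genes were), 4 were called by edgeR (Ccl22, Ccr7, Itgax and Flt3), and their summed level was 50.3 to 91.0 CPM under the high label and 278 to 421 CPM under the low label. Itgax, the integrin CD11c, stood at 61.3 ± 23.4 and 304 ± 73.5 CPM. Neutrophil markers summed to 110 to 180 CPM and 141 to 560 CPM, with Ly6g and Camp at 0 reads in all 6 libraries. Of 4 tested 0 were called, 2 were above 0 and 2 below. Most of the sum was Mmp9, a gelatinase, at 119 ± 39.7 and 288 ± 215 CPM and at 531 CPM in labelled low replicate 3. S100a8 went the other way, at 5.39 ± 1.44 and 2.32 ± 1.52 CPM, and both genes overlapped between the labels. Monocyte markers (0 of 6 tested called) all had log2 fold changes below 0, with a median of -0.71. Ccr2 and Plac8 were lower without overlap, as were 9.48% of all genes. Ccr2, a chemokine receptor, stood at 212 ± 45.3 and 521 ± 239 CPM, a log2 fold change of -1.30 that edgeR did not call (adjusted p 0.219). It was lower by DESeq2 (adjusted p 0.0216), with the GC offset (0.0026) and without labelled low replicate 3 (0.0379 by edgeR). Those fits called 1.96%, 1.52% and 0.369% of all genes lower. The markers summed to 3231 to 5036 and 2936 to 6157 CPM, most of it Fn1, fibronectin, at 2905 to 4770 and 1994 to 5812 CPM. Fibroblast markers (0 of 7 called) summed to 72.4 to 411 and 129 to 599 CPM, with the lowest sum under each label in batch 3. All 7 had log2 fold changes below 0, and 1, Col1a2, was lower without overlap. Epithelial markers summed to 14.8 to 21.7 and 41.0 to 42.6 CPM, and lymphocyte markers to at most 1.02 CPM. Of 3 epithelial markers tested 1 was called lower, Cdh1, E-cadherin, where 0.354% of all genes were. Cdh1 stood at 9.53 to 11.7 CPM under the high label and 30.1 to 37.5 CPM under the low label. The keratin genes Krt8 and Krt18 overlapped between the labels, with log2 fold changes of -0.32 and 0.005, so the sum was apart through Cdh1. The part of these markers in the Acod1 difference was not tested, and in bulk RNA fewer cells with Acod1 and less Acod1 RNA per cell cannot be told apart.

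The genes most like Acod1 over the 6 libraries were found among 8966 other protein-coding genes at 5 CPM or more, by Pearson's r of log2 CPM, as a description of libraries that share depth and GC trend. They were Cox7a2, a subunit of cytochrome c oxidase (r = 0.99), Fn3krp, a ketosamine kinase (0.99), Cd302, a C-type lectin receptor (0.99), Nme7 (0.98) and Mllt10 (0.98). Cd302 stood at 17.8, 24.3 and 22.3 CPM in the libraries labelled high, against 13.1, 13.9 and 10.5 CPM in those labelled low. The 5 had log2 fold changes of 0.27 to 0.77, against 1.33 for Acod1, so their differences were smaller. The mean profile of the 8 enzymes describes no single member, since Idh1, Idh3a, Sucla2 and Fh1 ran against Cs, Idh2, Ogdh and Mdh2 over the libraries. Most like that mean were Acaa2, a thiolase of mitochondrial fatty acid oxidation (0.97), Coq7, an enzyme of ubiquinone synthesis (0.97), Fam110b (0.96), Rpl21 (0.96) and Alox5 (0.96).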

How the data were processed

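The authors deposited 1 table per library of raw read counts for 55487 Ensembl genes plus 5 summary lines, which stayed out of library sizes and tests (35.2% to 49.4% of reads had no feature). Per the submitters' processing notes, their tools were STAR and HTSeq on GRCm38, with Trimmomatic, FastQC and DESeq2. Not given in the sources used here are tool versions, annotation release and strand setting. GENCODE M21 matched 55227 genes. The test was that of edgeR 4.0.16 under R 4.3.3 (scaling by TMM, default filter on low counts, quasi-likelihood test of the label alone, Benjamini-Hochberg adjustment over 14140 genes, threshold 0.05). Standard errors are the fold change over the square root of F, and 95% intervals use the fit's degrees of freedom. CPM uses TMM-scaled library sizes, and within-batch ratios add 0.1 CPM. Scripts were tested on simulated data. Replicates were compared in pairs, and none agreed within sampling noise.

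Alternatives were RLE factors, total counts, DESeq2 1.42.0, limma-voom (limma 3.58.1), other filters, removal of rRNA and mitochondrial genes, a GC offset (local regression of log2 CPM on GC content, span 0.4), the batch block, and leaving out libraries. The labels number a shared batch, which pairs the libraries. Deviations from the label means correlated at 0.16, 0.33 and -0.12 within batches 1, 2 and 3 over genes. The members and gene lists were chosen with earlier results of these data known. Named genes are the members, 10 further genes of the cycle, up to 4 genes per further list by smallest p at 1 CPM or more, and the 5 genes most like Acod1 and most like the other members. Kmo was named for its position, and Fn1, Ptgs2, C1qa, C1qc, Cd68, Fcgr1, Cd209a and Batf3 after their values were seen. Some items are not reported here.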

Additional observations from a re-analysis of the deposited data

How the results depend on the processing

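Acod1 was above 0 in all 18 alternatives, with log2 fold changes of 1.10 to 1.57 and adjusted p values of 0.000234 to 0.498. It passed the threshold in 6, with 1.33 by DESeq2, 1.39 without a filter on low counts, 1.27 with the GC offset, 1.23 with the GC offset and the replicate block, 1.47 without labelled low replicate 2 and 1.53 with sample quality weights in limma-voom, an alternative chosen after seeing the data. In the first 5 of these the count of members called was 1 and with quality weights it was 6, beside 4 of the 10 further genes of the cycle. The quality weights fit called 43.1% of all genes. The other 18 genes of the cycle gave 0 calls in 306 values over the 17 alternatives without it. Leaving out single libraries gave Acod1 values of 1.10 to 1.56, 0 to 1 members called and 8 to 1030 of all genes. Labelled low replicate 2 gave the 1030, and without it the rRNA share was 13.5% and 47.3% under the low label against at most 5.17% under the high label. Of all genes 63 were called, against 398 by DESeq2, 549 without a filter, 41 with the replicate block, 364 with the GC offset, 614 with that offset plus the replicate block, 28 without batch 3 and 6090 with quality weights. The block changed no call of Acod1 or those 18 genes, and ended that of Il1b.

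Signs turned for genes that were not called either way. With total counts, which moved the median of all genes from -0.02 to 0.25, these were Cs (0.18), Idh2 (0.074), Ogdh (0.064), Mdh2 (0.14), Sdhc (0.064) and Sdhd (0.29). Relative to that median Cs, Idh2, Ogdh, Mdh2 and Sdhc stayed below 0 (-0.08, -0.18, -0.19, -0.11 and -0.19) and Sdhd was at 0.033. Idh2 was 0.15 with the GC offset, with or without the block. Without batch 3 the values were 0.043 for Idh2, 0.060 for Ogdh, 0.15 for Mdh2, 0.045 for Sdhd and 0.051 for Esrra. Leaving out single libraries gave -0.52 to 0.041 for Mdh2, -0.035 to 0.18 for Idh3g and -0.055 to 0.051 for Sdhd, with Mdh2 above 0 only without labelled low replicate 3 and Idh3g below 0 only without labelled low replicate 2. Sdhd was 0.050 without a filter and 0.071 with quality weights. Slc1a5 was 0.010 with the GC offset. The cause was not tested. The depth of labelled low replicate 3, with 52 reads of Acod1, limits the precision of its values.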
